A study of Arabidopsis thaliana with 3 samples.

Results

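ICL and AIM1 take part in the breakdown of storage lipid in seed. They were chosen by name, with earlier results of these data known. Both are genes that the platform annotation pairs alone with a probe set, the group of probes that measures 1 transcript on the array. Each had 1 such probe set, 257947_at for ICL (AT3G21720) and 253759_at for AIM1 (AT4G29010), and together they made up 2 of the 13286 loci named by 1 gene and 2 of 22746 probe sets outside the controls. The RNA came from Arabidopsis thaliana seed, ecotype Columbia, and was hybridised to 3 Affymetrix ATH1 arrays, 1 for each state. The states were unimbibed seed, seed imbibed for 3 days on Murashige and Skoog agar medium, and seed imbibed for 3 days on that medium with trichostatin A (TSA), which inhibits histone deacetylases. The TSA dose is given as 10 µM for the treated sample, while a protocol text shared by all samples gives another unit. The states share ecotype and RNA isolation method, and the labels describe no mutant or transgene; the age of the seed lot and the number of seeds per extract were not given in the sources used here.

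An Arabidopsis seed stores oil as triacylglycerol in oil bodies. During germination and early seedling growth lipases release the fatty acids, β-oxidation in specialised peroxisomes (glyoxysomes) cuts them to acetyl-CoA, the glyoxylate cycle joins acetyl-CoA into four-carbon acids, and gluconeogenesis turns these into sugar. AIM1 encodes a multifunctional β-oxidation protein, with enoyl-CoA hydratase and hydroxyacyl-CoA dehydrogenase activities, that also serves jasmonate synthesis and takes its name from the abnormal inflorescence meristem of its mutant. ICL encodes isocitrate lyase, which splits isocitrate into succinate and glyoxylate and is, with malate synthase, an enzyme particular to the glyoxylate cycle.

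ICL gave a strong signal in all 3 states with a spread of 1.27-fold between its highest and lowest scaled values. Under 2 of 10 other ways of processing, ICL was instead past 2-fold higher in untreated imbibed seed than in unimbibed seed. AIM1 was 2.68-fold lower in untreated imbibed seed than in unimbibed seed, a call that was lost under 3 of 10 other ways of processing, 1 of which turned its direction. Neither passed 2-fold between TSA-treated and untreated imbibed seed. Relative to AIM1, ICL was 2.41-fold higher after imbibition than before it, a value that linear scaling of an array cannot change but that is of the order of the disagreement between probe sets of 1 gene.

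Values are signals on a linear scale, multiplied by a factor per array that made the 2% trimmed means equal. The factors were 1.44 for unimbibed, 0.877 for untreated and 0.859 for TSA-treated seed, so ratios are relative to the average transcript and cannot show whether a seed held more or less messenger RNA in all. Signals below 10.7, the 40th percentile of all scaled values, were raised to that floor before log2 ratios were taken. With 1 array per state there was no test, no p-value and no replicate error, and "rose", "fell", "higher" as a call and "lower" as a call mean a ratio of at least 2-fold.

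The scaled signal of ICL was 5331 in unimbibed seed, 4792 after imbibition without TSA and 4213 with TSA. On this scaling ICL was high before water uptake and near that level on both imbibed arrays, at 497, 446 and 392 times the floor. With poly-A scaling or quantile normalization it was instead higher after imbibition, by log2 ratios of 1.53 and 1.09 without TSA and 0.91 and 0.96 with TSA, all relative to unimbibed seed. As deposited, before scaling, its signals were 3710, 5462 and 4905, an order in which unimbibed seed was lowest instead of highest. The highest deposited signals of any probe set on these arrays were 9102, 6939 and 8374, and whether bright signals such as that of ICL were compressed was not tested.

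The scaled signal of AIM1 was 320.6 in unimbibed seed, 119.6 after imbibition without TSA and 134.3 with TSA. Unimbibed seed stood apart from both imbibed states, which lay close together at 11.1 and 12.5 times the floor. The deposited signals, 223.1, 136.3 and 156.3, had the same order of states as the scaled ones. In a seed sample, fewer cells that hold a transcript and less of it per cell cannot be told apart.

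**Figure D1:**
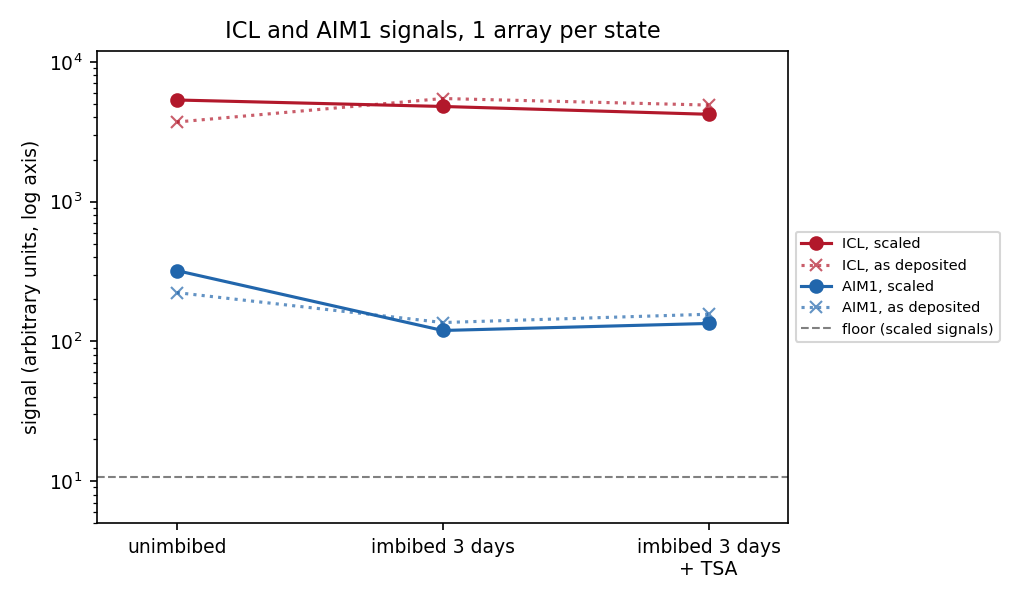
Signals of ICL (red) and AIM1 (blue) on the 3 arrays, with the states on the x axis and the signal in arbitrary units on a log y axis; filled circles are scaled signals, crosses are signals as deposited, and the dashed line is the floor of 10.7. ICL lies between 4213 and 5331 after scaling, while AIM1 goes from 320.6 in unimbibed seed to 119.6 and 134.3 in imbibed seed.

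The untreated imbibed array was set against the unimbibed one to see how these transcripts differed after 3 days of imbibition without the inhibitor. AIM1 fell, with a log2 ratio of -1.42, to 37.3% of its level in unimbibed seed, although the ratio was 0.26 when poly-A control transcripts were set equal between arrays. ICL had a log2 ratio of -0.15, which is 89.9% of its unimbibed level. Thus 1 of 2 genes fell, where 21.1% of the 16246 probe sets measured on either array were lower and 43.7% were past 2-fold either way.

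The size of each ratio was set beside the disagreement between probe sets of the same locus. Over 41 loci with several probe sets above the floor this gave an SD of 0.75 per log2 ratio for imbibed over unimbibed seed, and 18 hybridisation controls gave 0.17. The AIM1 ratio was 1.89 times the former SD and that of ICL 0.20 times. Neither SD holds the variation between batches of seed. Among the 10756 probe sets with both signals over the floor, 15.6% had a ratio below that of AIM1 and 49.1% one below that of ICL, so AIM1 lay in the lower part of the distribution and ICL at its middle.

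The AIM1 call depended on the scaling. Its log2 ratio was -0.71 with signals as deposited and -0.68 with hybridisation controls set equal, both short of 2-fold. For ICL the same settings gave 0.56 and 0.59. The median log2 ratio of all probe sets with both signals over the floor moved up by 0.71, 0.74 and 1.68 under the deposited, hybridisation control and poly-A settings, by -0.24 with medians set equal, and by 0.004 under quantile normalization. The 100 brightest probe sets held 29.3% of the signal in unimbibed seed and 15.2% in untreated imbibed seed.

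The difference between the log2 ratios of ICL and AIM1 was 1.27 for imbibed over unimbibed seed. Linear scalings and the floors leave it as it is, since both genes lay above every floor, so only 2 of the alternatives could move it: it was 1.16 with a pseudocount of 16 and 2.45 with quantile normalization. The SD of such a difference between probe sets of the same locus was 1.07, and 10 of the 41 loci had probe sets that differed by at least as much. The unequal change of ICL and AIM1 was therefore of the order of the disagreement between probe sets of 1 gene, and it does not show which of them changed per seed.

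The series' main question is what differs when seed germinates with the inhibitor, which the TSA-treated and untreated arrays address. ICL had a log2 ratio of -0.19 (87.9% of the untreated level) and AIM1 one of 0.17 (112.3%). So 0 of 2 genes passed 2-fold, where 19.9% of 15700 measured probe sets did, 10.4% higher and 9.51% lower. The SD per ratio from 49 loci with several probe sets was 0.39, so the ratios were 0.48 and 0.43 times that SD. Across the 10 alternatives ICL ranged from -0.62 to -0.14 and AIM1 from -0.27 to 0.20, and neither passed 2-fold in any of them; poly-A scaling alone moved the median of all probe sets by over 0.1, namely -0.43. The difference between ICL and AIM1 was -0.35, against an SD of 0.55 between probe sets of 1 locus. Without replicate arrays no ratio, under 2-fold or past it, can be told from variation between seed samples. The 2-fold threshold is not a limit of detection.

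**Figure D2:**
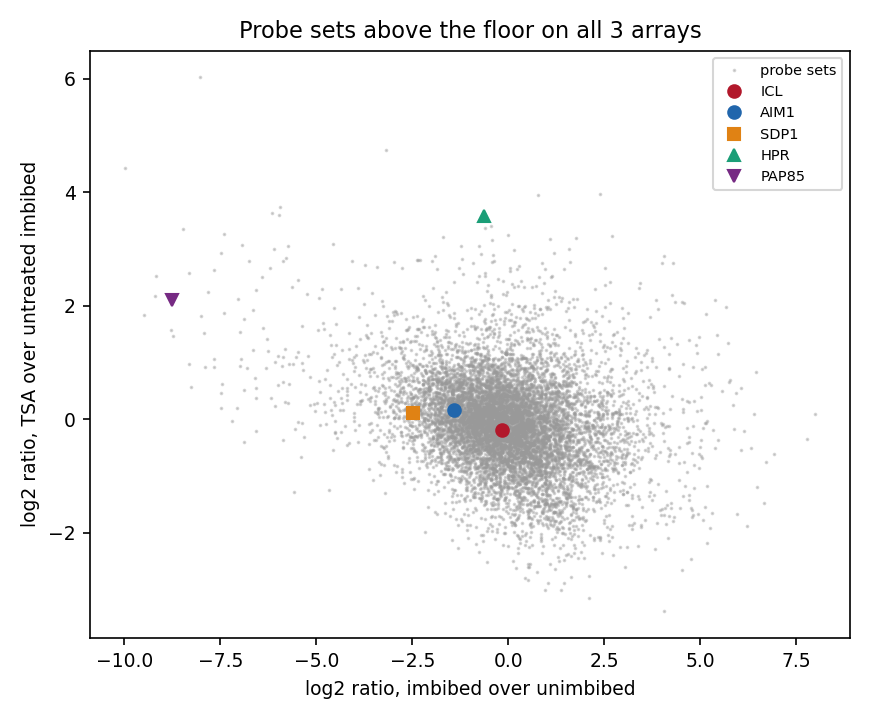
Log2 ratio of imbibed over unimbibed seed (x axis) and of TSA-treated over untreated imbibed seed (y axis) for the 9806 probe sets above the floor on all 3 arrays (grey points), with 5 named genes as coloured symbols. ICL and AIM1 lie near 0 on the y axis, AIM1 at -1.42 on the x axis, and HPR and PAP85 at 3.58 and 2.11 on the y axis; both axes hold the untreated array, so they are not independent.

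TSA-treated seed was also set beside unimbibed seed, which shares its arrays with the comparisons above. AIM1 fell, with a log2 ratio of -1.26, though it was short of 2-fold at -0.51 as deposited, -0.58 under hybridisation control scaling and -0.01 under poly-A scaling. ICL had -0.34, and 0.40, 0.33 and 0.91 under those settings, which moved the median of all probe sets by 0.74, 0.67 and 1.25. That is 1 of 2 genes lower, with 23.0% of 16314 measured probe sets lower and 46.4% past 2-fold either way. The difference between ICL and AIM1 was 0.92, against an SD of 0.89 between probe sets of 1 locus.

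Other genes of oil breakdown were taken from 6 lists of 49 loci, covering lipases and oil bodies, fatty acid import and activation, core and auxiliary β-oxidation, the glyoxylate cycle and gluconeogenesis. Only 10 of the 49 had a probe set of their own, ICL and AIM1 included, so AIM1 stood alone for core β-oxidation and ICL for the glyoxylate cycle. After imbibition 5 of the 10 fell and 0 rose, with a median log2 ratio of -1.04. Of all measured probe sets 21.1% were lower, 22.6% were higher and their median was 0.01. The sets are unlike, since each of the 10 was above the floor on both arrays and a measured probe set need be so on only 1. Over probe sets with both signals above the floor the median was -0.13. Without ICL and AIM1, 4 of 8 fell and the median was also -1.04. As deposited and with hybridisation control scaling 2 of the 10 fell, with medians of -0.33 and -0.29. With poly-A controls set equal, 0 of the 10 fell and 3 rose, and the median was 0.64. Because so few loci were measured, these counts describe the 10 genes and not the pathway. The lists were chosen with earlier results of these data known, so the counts are not an independent comparison.

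SDP1, the main triacylglycerol lipase of germinating seed, had signals of 197.0, 35.4 and 38.1 in unimbibed, untreated and TSA-treated seed. It fell on imbibition with a log2 ratio of -2.48, and was at -0.80 with poly-A scaling. Like those of AIM1, its signals on both imbibed arrays were lower than in unimbibed seed and close together, and its TSA ratio was 0.11. SDP1-LIKE, its close homologue, had signals of 31.9, 17.7 and 7.56, the last below the floor, a log2 ratio of -0.85 on imbibition, and was at least 1.65-fold lower with TSA, short of a call. The listed loci AT3G14360 and AT4G24160, which the annotation leaves without a gene name, fell on imbibition with log2 ratios of -2.65 and -1.53. Both were short of 2-fold with poly-A scaling, and AT4G24160 also as deposited and with hybridisation control scaling. AT4G10790 had -0.50. With TSA these 3 had ratios of 0.12, 0.65 and 0.05.

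Of the auxiliary β-oxidation list, SDRB, a peroxisomal 2,4-dienoyl-CoA reductase for unsaturated fatty acids, was measured by 2 probe sets. The first had signals of 106.3, 86.6 and 46.3 and the second 93.7, 117.5 and 69.7. On imbibition their log2 ratios were -0.30 and 0.33, opposite in sign on the reported scaling. The second was past 2-fold higher as deposited and with hybridisation control or poly-A scaling, and the first with poly-A scaling. With TSA both were below 0, at -0.90 and -0.75, and short of 2-fold except under poly-A scaling. AT1G01710 fell on imbibition with a log2 ratio of -1.23, a call lost as deposited, with either control scaling and with a pseudocount, and had 0.49 with TSA. PPDK, pyruvate orthophosphate dikinase of the gluconeogenesis list, had signals of 292.0, 174.6 and 217.6 and ratios of -0.74 and 0.32. On the reported scaling its states kept the order seen for AIM1, with unimbibed seed highest and untreated imbibed seed lowest. That order depended on the scaling. Across the 10 alternatives the ratio of PPDK over unimbibed seed ranged from -0.98 to 0.94 without TSA and from -0.65 to 0.82 with TSA.

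Ordered by their ratio on imbibition, 8 of the 10 loci lay below ICL and SDRB, with a mean of 0.02 over its probe sets, lay above it. AIM1 had 3 loci below it, SDP1, AT3G14360 and AT4G24160, all of the lipase and oil body list. Relative to ICL, SDP1 was lower by a log2 difference of 2.32, and relative to AIM1 by 1.06. These differences do not depend on linear scaling. They were 1.90 and 0.74 with a pseudocount of 16, and 3.53 and 1.08 with quantile normalization. The SD of such a difference between probe sets of 1 locus was 1.07. With TSA, 0 of the 10 loci rose or fell, where 10.4% of all measured probe sets were higher and 9.51% lower. Their median log2 ratio was 0.11, against -0.02 over all measured probe sets. With hybridisation or poly-A controls set equal, with the floor at the 25th percentile or without a floor, 1 or 2 of the 10 were lower with TSA. SDP1-LIKE was among them each time.

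**Figure D3:**
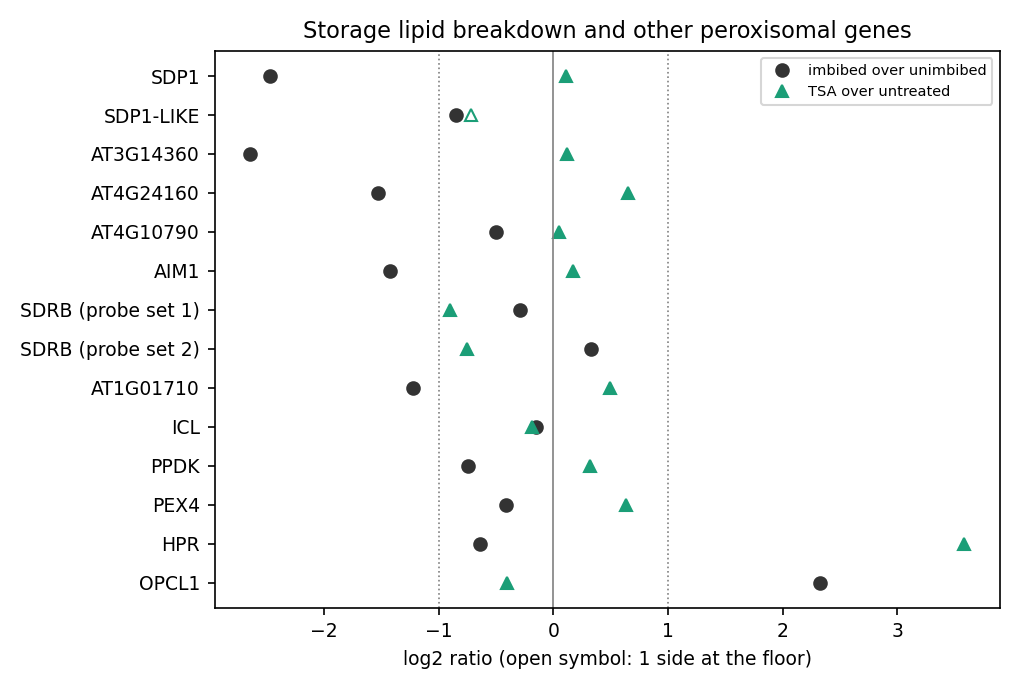
Log2 ratios of the measured genes of storage lipid breakdown (SDP1 to PPDK) and of other peroxisomal lists (PEX4, HPR, OPCL1), with circles for imbibed over unimbibed seed and triangles for TSA-treated over untreated seed; dotted lines mark 2-fold and an open symbol has 1 side at the floor. The circles of SDP1, AT3G14360, AT4G24160, AIM1 and AT1G01710 lie beyond 2-fold on the lower side, and HPR at 3.58 is the 1 triangle beyond 2-fold.

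As a seedling turns green, its glyoxysomes are remodelled into leaf peroxisomes, which house steps of photorespiration. HPR, the hydroxypyruvate reductase of leaf peroxisomes and the only 1 of 5 listed photorespiratory peroxisome genes with a probe set of its own, had signals of 107.6, 69.0 and 827.5. It was low on the unimbibed and untreated arrays and high with TSA, a log2 ratio of 3.58, while ICL in the same comparison had -0.19. The difference between HPR and ICL with TSA was 3.77, or 13.6-fold. Linear scalings and the floors leave this difference as it is, so most of the alternatives could not move it. It was 3.50 with a pseudocount of 16 and 3.77 with quantile normalization. On imbibition without TSA the ratio of HPR was -0.64. The pair of HPR and ICL was singled out after its values had been seen.

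Among the other peroxisomal lists, OPCL1, a CoA ligase of jasmonate synthesis, went from 11.8 in unimbibed seed to 59.1 after imbibition and 44.7 with TSA. It rose on imbibition with a log2 ratio of 2.33 and had -0.40 with TSA. On imbibition its ratio was thus opposite in sign to that of AIM1, which also serves this pathway, except under poly-A scaling. PEX4, a ubiquitin-conjugating enzyme that recycles peroxisomal import receptors, had signals of 67.2, 50.4 and 78.3 and ratios of -0.41 and 0.64. It was the only 1 of 23 listed peroxisome biogenesis genes with a probe set of its own, and 0 of 6 catalase and peroxisomal redox genes and 0 of 8 oil synthesis genes had one.

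Genes whose course over the 3 arrays was most like that of ICL or AIM1 were sought among 5231 probe sets paired with 1 gene and above the floor on all arrays. Likeness was the larger of the absolute differences in the log2 ratios of the first and second comparison, over 3 arrays. The nearest to ICL was EIF4A-2, a translation initiation factor, at a distance of 0.026, with signals of 338.8, 299.1 and 262.7. AT5G18390, AT1G18360, AT2G27900 and AT3G05760 followed at 0.032 to 0.041. The nearest to AIM1 were AT4G09560 at 0.027 and AT5G06120, AT4G27900, AT5G47940 and AT2G47970 at 0.036 to 0.051.

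A near match is common with so few arrays. Of 9805 probe sets, named or not, 492 (5.02%) lay within 0.25 of ICL on both ratios and 279 (2.85%) within 0.25 of AIM1. The distance from ICL to AIM1 themselves was 1.27, and 59.9% of the probe sets were closer to ICL than AIM1 was.

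Neighbouring genes on the chromosome were examined as well, a choice made after results of these arrays were known. Of the 10 protein-coding genes that flank each member, 5 on each side, 5 had a probe set of their own around ICL and 5 around AIM1. On imbibition, around AIM1 the adjacent AT4G29000 fell with a log2 ratio of -1.05, and AT4G29020 on the other side rose by 2.48, from 321.2 to 1791. The fall of AT4G29000 stayed past 2-fold under 5 of the 10 alternatives and the rise of AT4G29020 under all 10. AT4G29030, next to AT4G29020, was at least 3.39-fold higher. In all, 2 of 4 measured neighbours of AIM1 rose on imbibition and 1 fell, and 2 of 5 of ICL rose and 0 fell, where 22.6% of all measured probe sets rose and 21.1% fell. With TSA, 1 of 5 neighbours of ICL and 1 of 5 of AIM1 were higher and 0 were lower, where 10.4% of all measured probe sets were higher. These were AT3G21670, from 11.2 to 73.0, near ICL, and AT4G28940, at least 3.67-fold higher, near AIM1, each the fifth gene from the member.

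The state labels were set against marker genes. PAP85, a storage protein of dry seed and the only 1 of 10 listed markers with its own probe set, had signals of 10078, 23.4 and 100.9. The 4 measured green tissue markers of 8 listed rose on imbibition and again with TSA on the reported scaling; RCA, rubisco activase, had 11.6, 485.3 and 2085. The 2 measured root hair markers of 3, EXPA7 and EXPA18, were below the floor in unimbibed seed and fell with TSA, by log2 ratios of -1.74 and -1.24. BAN, the 1 seed coat marker of 4 with its own probe set, was below the floor on all arrays, and 0 of 3 endosperm markers had a probe set of their own. Signals of 3′ over 5′ probe sets of 6 control sets, a sign of RNA integrity, ranged from 0.667 to 3.87 in unimbibed, 0.876 to 4.66 in untreated and 0.757 to 4.31 in TSA-treated seed. Of these, the first actin set stood at 1.82 on the unimbibed array against 4.66 and 4.31 on the imbibed ones, the arrays between which AIM1 was lower, while the second stood at 1.08, 1.096 and 1.43. The part of tissue make-up and RNA integrity in the ratios of ICL and AIM1 was not tested.

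**Figure D4:**
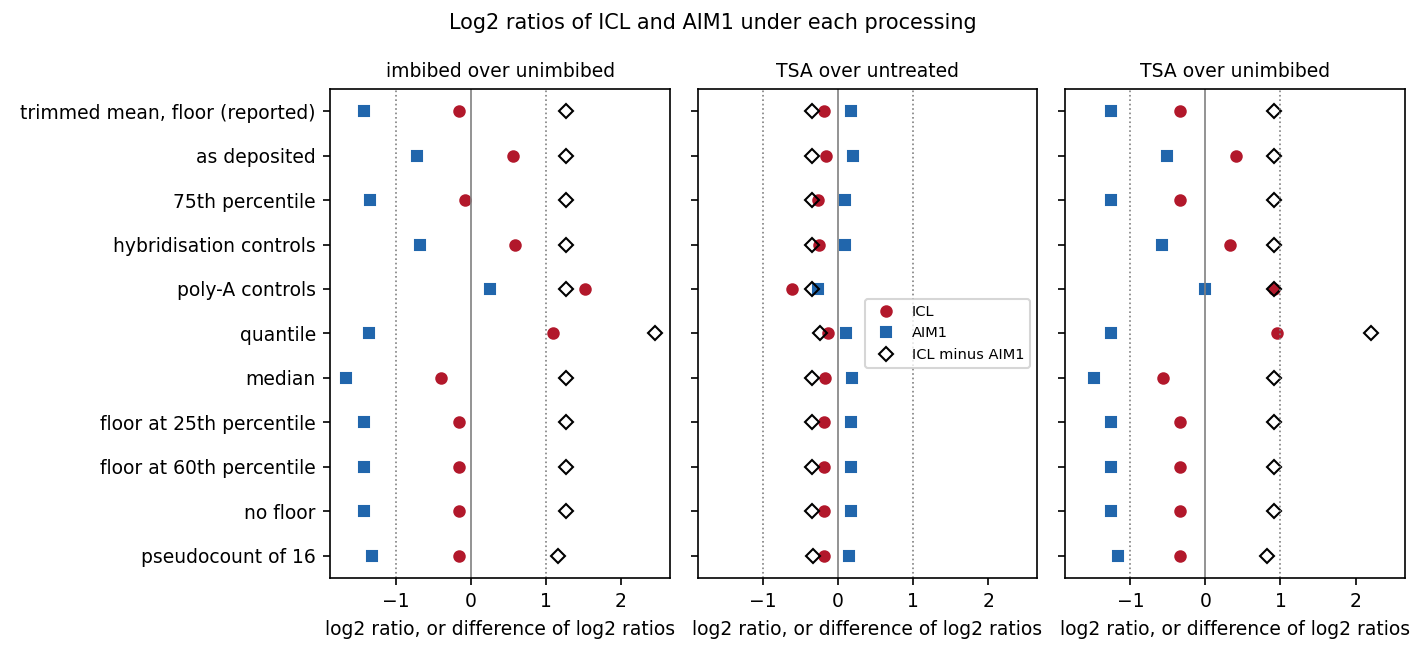
Log2 ratios of ICL (red circles) and AIM1 (blue squares), and their difference (open diamonds), under the reported processing and each of 10 alternatives, 1 panel per comparison; dotted lines mark 2-fold. The difference stays at 1.27 on imbibition under each linear scaling, while AIM1 alone ranges from -1.67 to 0.26. In the panel of TSA-treated over untreated seed, all values of ICL and AIM1 lie within 2-fold.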

How the data were processed

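RNA of 3 seed states was measured on 1 ATH1 array each. The authors deposited linear intensity values, 1 MAS5 signal per probe set, per the submitters' processing notes. The MAS5 version, the scaling target and any detection calls: not given in the sources used here. Columns were mapped to samples by name and 0 were left unmapped. Of 22810 probe sets, 64 controls were kept out of all counts.

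The trimmed means of the arrays differed by 46.8% of their mean, so signals were scaled to equal trimmed means, floored at the 40th percentile and compared as log2 ratios with python 3.11.15, numpy 2.4.6 and pandas 2.3.3. A probe set was measured where at least 1 signal was above the floor. With 1 array per state no test was run, and precision is limited by the number of arrays. The procedure was tested on simulated data. The noise set there was below the SD between probe sets of 1 locus, so that test does not gauge the calls reported here. Alternatives were 6 scalings and 4 ways to treat low signals.

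In the annotation, 13513 probe sets had 1 gene, 503 had several and 8730 had none; 13436 matched the RefSeq gene table of TAIR10.1, which supplied names and gene order. An unpaired probe set is unnamed here. Coordinates are left out because the array's genome build is unknown. A list's value is the median over loci, with probe sets of a locus averaged. The named genes are ICL, AIM1, every measured gene of the 6 breakdown lists, up to 2 genes of each other list and the 5 most alike genes. Chromosomal neighbours were added after the values had been seen. The members and lists were chosen with earlier results of these data known.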

Additional observations from a re-analysis of the deposited data

How the results depend on the processing

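The 10 alternatives were applied to 15 results, giving 150 values. Of these, 122 stayed on the same side of 2-fold, where a call applied, and otherwise moved by less than the SD between probe sets of 1 locus or, for counts, by at most 1.5-fold. They include values that were fixed in advance, so their count does not measure stability. Linear scalings and floors cannot change the difference between ICL and AIM1, and the floors cannot change the ratio of either gene. The 122 also include ICL on imbibition, which turned in sign to 0.56 as deposited and 0.59 with hybridisation controls, and the list median, at -0.33 and -0.29. With signals as deposited, AIM1 was at -0.71 for imbibed and -0.51 for TSA-treated over unimbibed seed, ICL at 0.40 and the median of the breakdown lists at -0.11 for the latter. With hybridisation controls set equal, the same values were -0.68, -0.58, 0.33 and -0.18. With poly-A control scaling, the values for imbibed over unimbibed seed were 0.26 for AIM1, 1.53 for ICL and 0.64 for the lists. For TSA-treated over untreated seed they were -0.27, -0.62 and -0.32, and for TSA-treated over unimbibed seed -0.0078, 0.91 and 0.40. Quantile normalization gave ICL 1.09 for imbibed and 0.96 for TSA-treated over unimbibed seed, and differences between ICL and AIM1 of 2.45 and 2.21. The count of probe sets past 2-fold with TSA was 3132, against 5053 with poly-A scaling, 4925 and 2024 with the floor at the 25th and 60th percentile, 8200 without a floor and 1839 with a pseudocount. Without a floor the counts were 12678 for imbibed and 13273 for TSA-treated over unimbibed seed, against 7094 and 7567. The share of calls that were higher after imbibition was 51.7%, against 75.7%, 76.7% and 92.3% with deposited, hybridisation control and poly-A scaling; with TSA it was 52.3%, and 22.4% with poly-A scaling. Against unimbibed seed, TSA-treated seed had 50.3%, and 75.3%, 73.1% and 86.7% under those settings. No paired analysis was possible because each state had 1 array. ICL and AIM1 were above every floor tried, so the floor did not bear on their ratios.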
